A study of Mus musculus with 6 samples.

Results

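The genes described here are 47 components of the TGF-beta and bone morphogenetic protein (BMP) pathway, out of 46983 genes in the deposited count tables. They were chosen by symbol for their known roles, with earlier results of these data known. They comprise 12 ligand genes, 11 receptors, 8 Smads, 3 nuclear corepressors, 9 antagonists and 4 Id genes. All 47 symbols were matched to an Ensembl identifier. RNA sequencing was used to count transcripts in cultures labelled as mouse embryonic fibroblasts, the matrix-making cells that grow out of a dispersed embryo. There were 3 libraries labelled SphK2 null and 3 labelled wild type, called null-labelled and wild-type-labelled here. SphK2 is sphingosine kinase 2, an enzyme that makes the lipid signal sphingosine-1-phosphate. Both groups came from C57BL/6 embryos of 14 days, were at passage 16 and grew in DMEM with 10% FBS, which also held sodium pyruvate, pen/strep and amino acids of the non-essential kind. The labels name no added TGF-beta, BMP or inhibitor. They do not give the part of the gene that the null allele lacks, nor the number of embryos or cultures behind each group.

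Ligands of the TGF-beta family are secreted dimers that bring together type II and type I receptor kinases. TGF-beta and activin receptors phosphorylate Smad2 and Smad3, and BMP receptors phosphorylate Smad1, Smad5 and Smad9. These Smads join Smad4 in the nucleus, where Ski, Skil and Tgif1 restrain them. Smad6 and Smad7 block the receptors, secreted antagonists such as gremlin and follistatin bind the ligands, and the Id genes are rapid targets of BMP signals. In fibroblasts the pathway is known for driving matrix production and the contractile myofibroblast state.

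The libraries held 15598566 to 23681718 counts in genes. Levels are given in CPM, the usual depth-scaled count, with the library totals adjusted for composition by TMM factors. Log2 fold changes are null-labelled over wild-type-labelled. Their SE is derived from the test statistic and is too small for large differences with few counts in a group. Adjusted p-values are from edgeR's quasi-likelihood test over all 15199 genes tested, where an adjusted p under 0.05 counts as a call. Sphk2 itself, the gene that the label names, was present in all libraries and went against the label. It averaged 50.02 ± 1.35 CPM in null-labelled and 27.3 ± 0.907 CPM in wild-type-labelled libraries (SD, n = 3 each; log2 fold change 0.87 ± 0.051 SE, edgeR adjusted p = 4.48e-64), so every direction below is one between labels. Fibroblast markers differed as well. All 12 of the list were lower in the null-labelled libraries, with a summed level of 3361 to 3396 CPM there and 14820 to 15300 CPM in the wild-type-labelled ones. In the null-labelled libraries 4 of the 12 were under 1 CPM, against the label of fibroblasts, and Thy1 was at 0 counts in each. Others kept more. Vim alone averaged 3211 ± 17.9 CPM in null-labelled libraries, most of the summed level there, and 5622 ± 115 CPM in wild-type-labelled ones (SD, n = 3 each). Pdgfra, Pdgfrb and S100a4 averaged 89.4, 28.98 and 26.1 CPM in null-labelled and 249.6, 106.9 and 519.9 CPM in wild-type-labelled libraries. Col1a1, a collagen gene, averaged 1.68 ± 0.210 CPM in null-labelled and 623 ± 17.03 CPM in wild-type-labelled libraries (SD, n = 3 each). Of 12 epithelial markers, 11 were under 1 CPM in the null-labelled libraries, the exception being Krt8, and their summed level was 384.9 to 411.1 CPM in null-labelled and 107.6 to 110.5 CPM in wild-type-labelled libraries. The summed level of 6 neural markers was 436.4 to 461.3 CPM in null-labelled and 426.1 to 433.8 CPM in wild-type-labelled libraries, but single markers differed. Nes was higher, at 434 ± 12.2 CPM in null-labelled and 301 ± 3.61 CPM in wild-type-labelled libraries, whereas Sox2 was lower, at 0.093 ± 0.071 CPM in null-labelled and 112 ± 0.568 CPM in wild-type-labelled libraries (SD, n = 3 each), and so was Map2. Of 8 trophoblast markers, summing to 19.92 to 20.63 CPM in null-labelled and 1.247 to 2.094 CPM in wild-type-labelled libraries, only Hand1 reached a group mean of 1 CPM. Hand1 averaged 20.05 ± 0.213 CPM in null-labelled and 0.136 ± 0.034 CPM in wild-type-labelled libraries (SD, n = 3 each). Eomes went the other way, at 0.109 ± 0.055 CPM in null-labelled and 0.931 ± 0.185 CPM in wild-type-labelled libraries (SD, n = 3 each). The sums for endothelium, blood and muscle were at most 6.558 CPM in any library. The part of these marker differences in the results below was not tested. In bulk RNA, fewer cells of a type and less RNA per cell cannot be told apart. Nothing in the labels says that the libraries of a group were separate cultures, so the p-values cover no more than the differences among libraries of a group, and these may be technical.

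In the null-labelled libraries 27 of the 47 were called lower and 12 were called higher. Another 2 did not pass the threshold, and 6 had too few counts to be tested. The background is wide, since 79.2% of all genes tested were called, 41.1% as lower and 38.1% as higher. The share of the 41 tested members that was called, 95.1%, therefore says little by itself. The sizes stood further from the background, but the 47 genes were chosen with earlier results of these data known. The tested members were also more abundant, with a median average log2 CPM of 5.396 against 4.59 for all tested genes. Over 2-fold, 15 members were lower and 5 higher, or 36.6% and 12.2% of those tested, where 15.8% and 10.4% of all genes were. Over 32-fold, 7 were lower, or 17.1%, against 6.15% of all genes. The median absolute log2 fold change was 0.99 over the tested members and 0.47 over all tested genes, while their medians with sign were -0.52 and -0.02. These shares rest on members that passed a filter which a gene high in one group alone can pass. The 9 tested members Bmp2, Bmp4, Bmp6, Inhba, Smad6, Smad9, Bambi, Pmepa1 and Id4 averaged under 1 CPM in the null-labelled libraries and at least 1 CPM in the others, and Bmp7 and Chrd showed the reverse. Groups did not overlap in 39 of the 41, where 79.9% of all tested genes had groups without overlap.

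**Figure D1:**
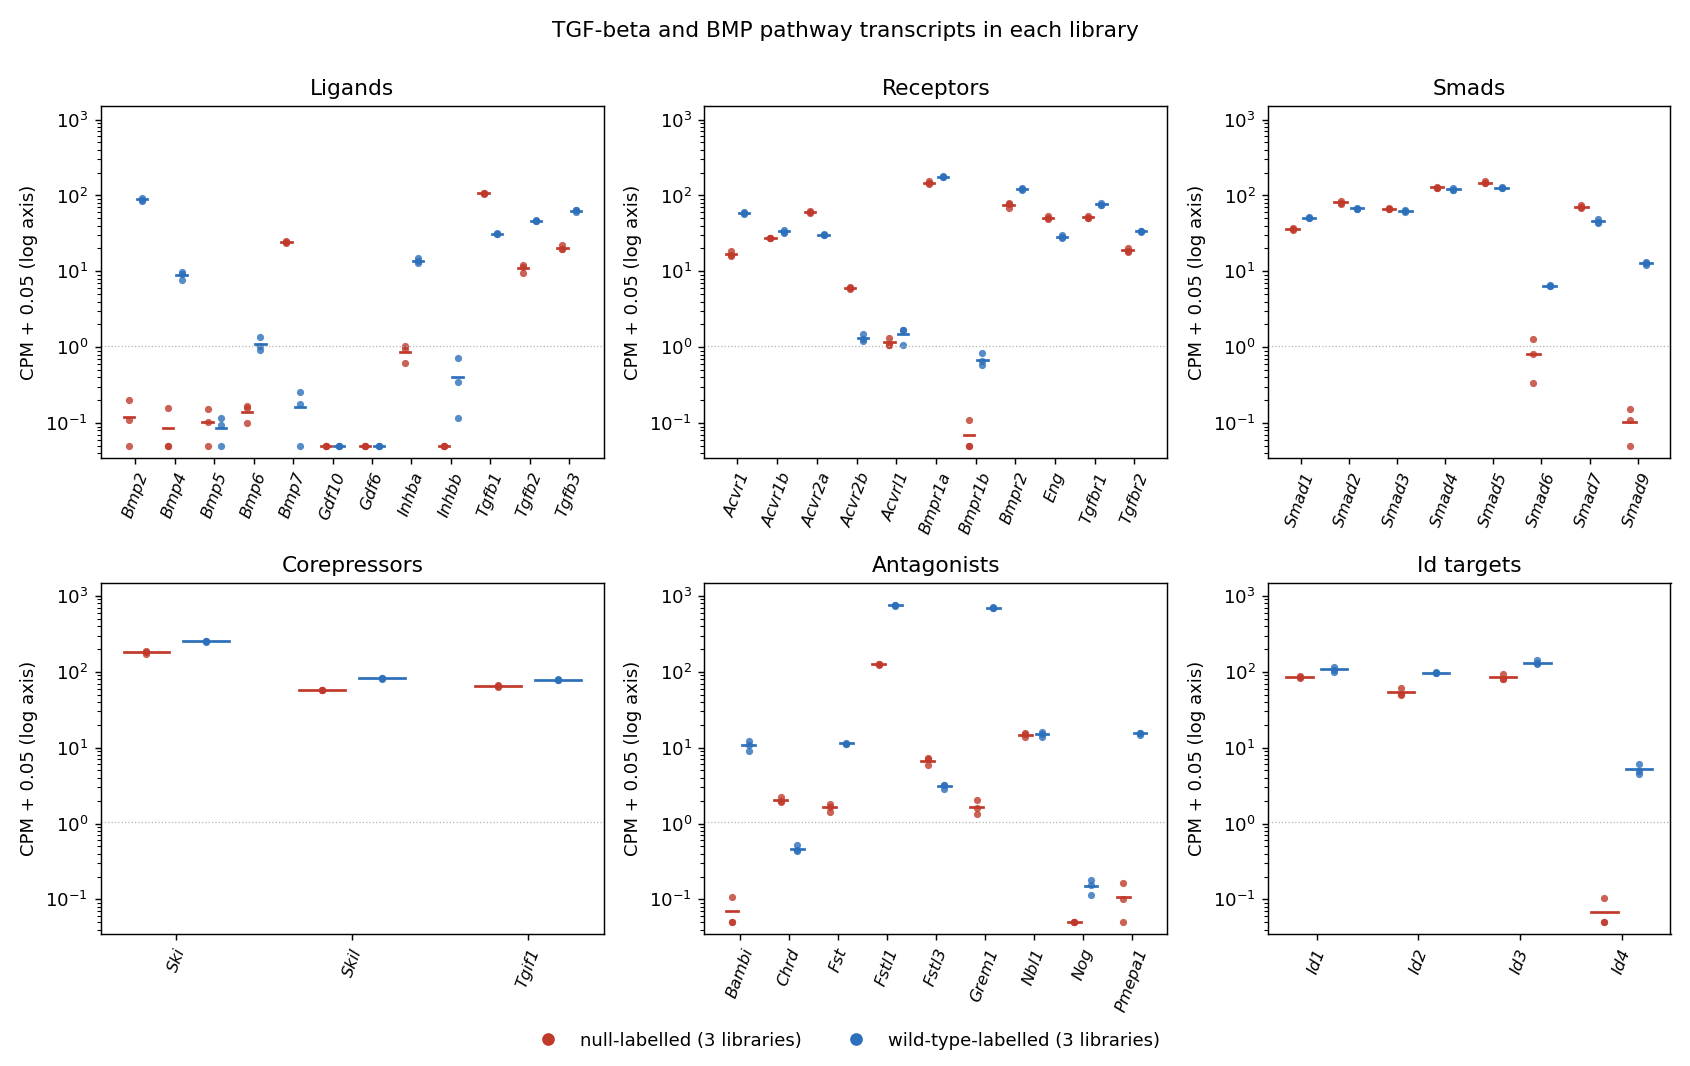
CPM + 0.05 on a log axis of the 47 genes in each library, by role. Points are libraries, bars are group means and the dotted line marks 1 CPM. Bmp2, Bmp4, Smad9, Bambi, Pmepa1 and Id4 lie near the bottom of the axis in the null-labelled libraries, and Bmp7 does so in the wild-type-labelled ones.

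Among the TGF-beta ligands, the transcript of one isoform was higher in the null-labelled libraries and the other two were lower. Tgfb1, which encodes the most widely expressed isoform, had 108, 105 and 108 CPM in the null-labelled libraries, against 30.6, 31.6 and 30.6 CPM in the wild-type-labelled ones. Its log2 fold change was 1.79 ± 0.044 (SE). Tgfb2, an isoform prominent in embryonic mesenchyme, had 9.48, 12.0 and 11.5 CPM in null-labelled and 45.5, 48.0 and 46.3 CPM in wild-type-labelled libraries (log2 fold change -2.08 ± 0.064, SE). Tgfb3, known for its role in palate fusion, had 22.1, 19.7 and 19.6 CPM in null-labelled and 64.3, 59.8 and 64.3 CPM in wild-type-labelled libraries (-1.62 ± 0.052, SE). No library of one group reached the range of the other for any of the 3 genes, and the largest edgeR adjusted p among them was 1.45e-210. Levels of different genes can be compared per kilobase of exon. On that scale Tgfb1 made up 72.7 ± 0.493% of the 3 isoforms in null-labelled and 18.7 ± 0.629% in wild-type-labelled libraries (SD, n = 3 each), where Tgfb3 led with 56.7 ± 1.61%. The sum of the 3, by contrast, was 29.15 ± 0.470 CPM per kilobase in null-labelled and 32.7 ± 0.456 in wild-type-labelled libraries (SD, n = 3 each), a difference of 1.12-fold.

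The BMP ligands also differed in which gene was expressed, and here the sum differed too. Bmp2, an osteogenic BMP (chromosome 2, 133552159 to 133562885, mm10), had 3, 1 and 0 counts in the null-labelled libraries and 1990, 1427 and 1679 in the wild-type-labelled ones. This is 0.071 ± 0.078 CPM in null-labelled and 89.04 ± 4.13 CPM in wild-type-labelled libraries (SD, n = 3 each), with a log2 fold change of -10.14 ± 0.13 (SE). Bmp4, its close relative, had 0, 0 and 2 counts in null-labelled and 212, 115 and 184 in wild-type-labelled libraries, a ratio of 246 with a 95% exact binomial counting interval of 67.7 to 2035. Bmp7, of another BMP subgroup and known from kidney and eye development (chromosome 2, 172868012 to 172940321), showed the opposite pattern, with 472, 408 and 473 counts in null-labelled and 3, 0 and 4 in wild-type-labelled libraries (log2 fold change 7.57 ± 0.19, SE). The groups of these 3 BMP genes lay far apart, with no more than 4 counts in any library of the lower group. With so few counts the SE given for Bmp2 and Bmp7 is too small, and the size of the difference turns on 1 library. The log2 fold change was -11.33 for Bmp2 without null-labelled replicate 1 and 8.17 for Bmp7 without wild-type-labelled replicate 3. That of Bmp4 was -7.69 in the fit to all libraries and -10.38 without null-labelled replicate 3, and depends on the prior count. The scarce Bmp6, a relative of Bmp7, averaged 0.092 ± 0.035 CPM in null-labelled and 1.06 ± 0.232 CPM in wild-type-labelled libraries (SD, n = 3 each), with an edgeR adjusted p = 5.31e-12, the largest among the 8 tested ligands. Bmp5 had 3 counts over the null-labelled and 2 over the wild-type-labelled libraries, with 1878 of its 4025 exonic bases uncounted because they are shared with Gm26903, and Gdf6 and Gdf10 had none in any library. Per kilobase, Bmp7 was 98.6 ± 0.291% of the 5 BMP ligands in null-labelled libraries, and Bmp2 was 84.99 ± 1.72% in wild-type-labelled libraries, followed by Bmp4 with 13.4 ± 1.92% (SD, n = 3 each). Their sum was 6.16 ± 0.198 CPM per kilobase in null-labelled and 29.5 ± 0.855 in wild-type-labelled libraries, 4.78-fold lower in the null-labelled ones. With 3 libraries a group the exact two-sided permutation test cannot go below p = 0.1, and it gave 0.1 for this sum as for each of the 9 sums computed, since none of them overlapped between groups.

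Activins are dimers of the subunits that Inhba and Inhbb encode. Inhba had 0.564, 0.993 and 0.906 CPM in the null-labelled libraries, against 12.8, 13.6 and 14.9 CPM in the wild-type-labelled ones (log2 fold change -4.06 ± 0.16 SE, edgeR adjusted p = 1.88e-145). Inhbb had 0 counts in each null-labelled library and 7, 1 and 13 in the wild-type-labelled ones, too few for the test.

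**Figure D2:**
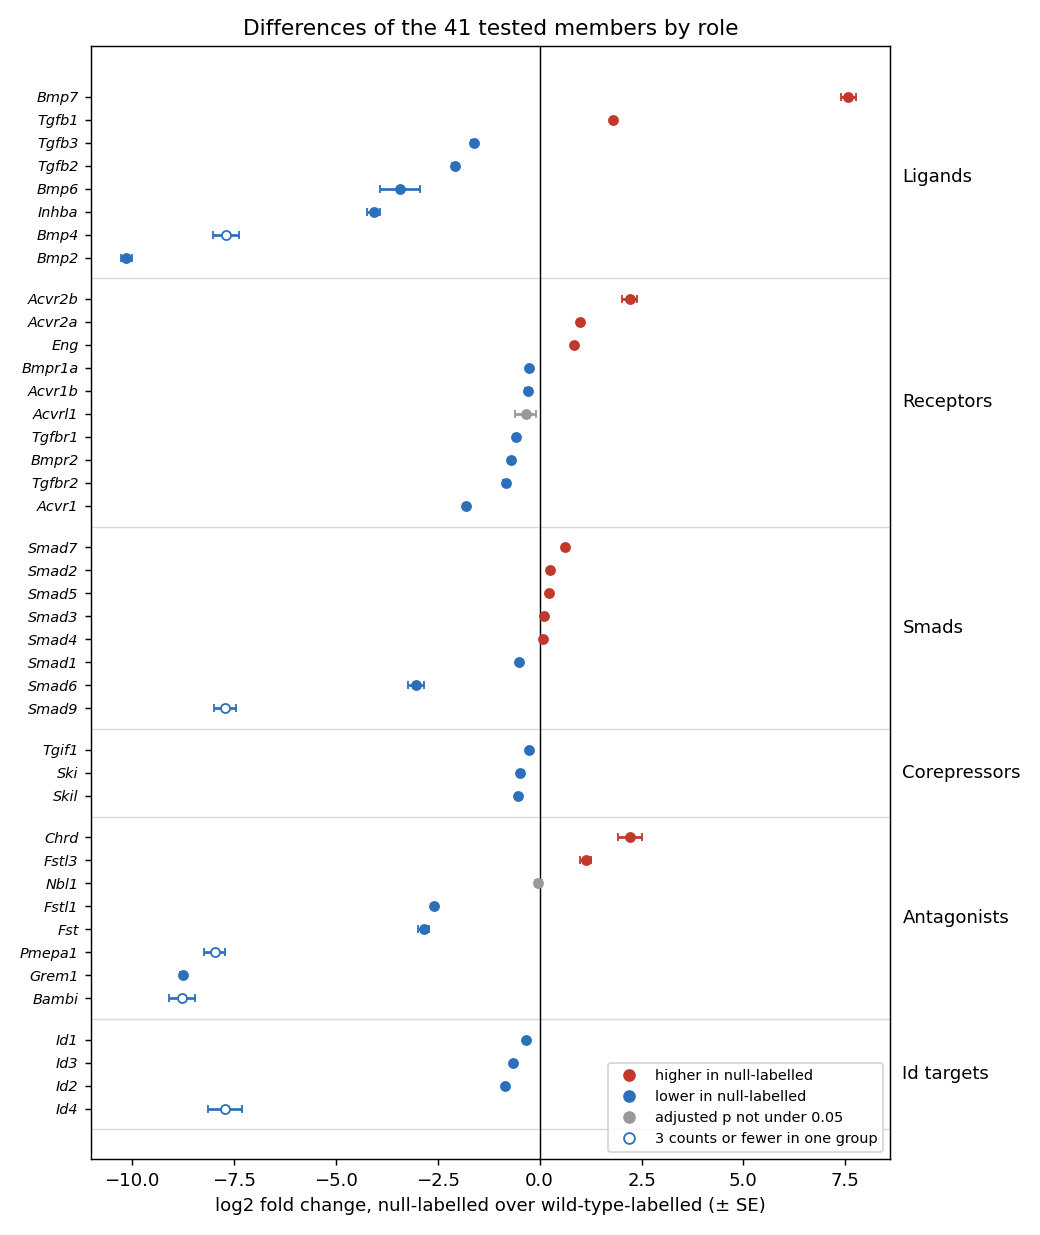
Log2 fold change, null-labelled over wild-type-labelled, with its SE, for the 41 members tested, by role. Open points have 3 counts or fewer in one group, and their fitted values depend on the prior count. The SE bars are too short for large differences with few counts in one group. The ligands run from -10.14 for Bmp2 to 7.57 for Bmp7, while 5 of the 8 Smads lie between 0.07 and 0.63. Before the log2, the fold differences of Bmp2 and Bmp7 move by over 1.5 times without 1 library.

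The tested receptors had a median log2 fold change of -0.32, where the ligands had -2.75, and all receptors past the threshold kept at least 5 CPM in both groups except Acvr2b. Of 11 receptors, 6 were lower, 3 were higher, 1 did not pass and 1 was not tested. The 3 higher ones were the activin type II receptors and the coreceptor endoglin. Acvr2b had 6.05, 5.78 and 6.24 CPM in null-labelled and 1.46, 1.247 and 1.152 CPM in wild-type-labelled libraries (log2 fold change 2.21 ± 0.17 SE, edgeR adjusted p = 4.60e-36). Acvr2a had 61.6, 60.7 and 58.6 CPM in null-labelled and 30.3, 29.9 and 30.6 CPM in wild-type-labelled libraries (0.99 ± 0.048, SE). Eng, the endoglin gene, had 53.0, 50.9 and 48.7 CPM in null-labelled and 27.5, 29.9 and 28.4 CPM in wild-type-labelled libraries (0.84 ± 0.051, SE). Every null-labelled library lay above every wild-type-labelled one for these 3 genes.

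The other type II receptors were lower. Bmpr2, which binds BMPs, averaged 74.99 ± 6.27 CPM in null-labelled and 121 ± 3.60 CPM in wild-type-labelled libraries (SD, n = 3 each), with a log2 fold change of -0.69 ± 0.036 (SE). Tgfbr2, which binds TGF-beta, averaged 18.9 ± 1.10 CPM in null-labelled and 33.6 ± 0.364 CPM in wild-type-labelled libraries (SD, n = 3 each), with -0.83 ± 0.061 (SE). Per kilobase, the activin receptors Acvr2a and Acvr2b held 47.9 ± 0.313% and 15.5 ± 0.975% of the 4 type II receptors in null-labelled libraries, and 26.9 ± 0.583% and 3.70 ± 0.390% in wild-type-labelled libraries (SD, n = 3 each). The sum over these 4 was 22.2 ± 0.711 CPM per kilobase in null-labelled and 19.8 ± 0.355 in wild-type-labelled libraries.

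No type I receptor was higher. Acvr1, a BMP and activin type I receptor, differed the most of those tested, with 16.3, 18.3 and 16.1 CPM in null-labelled and 60.01, 58.1 and 57.6 CPM in wild-type-labelled libraries (log2 fold change -1.80 ± 0.055 SE, edgeR adjusted p = 1.93e-231). Bmpr1a, the main BMP type I receptor here, had 153, 142 and 146 CPM in null-labelled and 173, 177 and 179.8 CPM in wild-type-labelled libraries (-0.26 ± 0.029, SE). It stayed the most abundant receptor per kilobase in both groups. Tgfbr1, the TGF-beta type I receptor, stood at -0.58 ± 0.042 and Acvr1b, the activin one, at -0.29 ± 0.056 on the log2 scale (SE). Bmpr1b was scarce, with 1 count over the null-labelled and 36 over the wild-type-labelled libraries (ratio 34.6, 95% counting interval 5.83 to 1405). Acvrl1, a type I receptor known from endothelium, averaged 1.11 ± 0.154 CPM in null-labelled and 1.43 ± 0.346 CPM in wild-type-labelled libraries (SD, n = 3 each), with overlapping groups and an edgeR adjusted p = 0.223.

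The signal-carrying Smads were close in level between the labels, apart from one BMP Smad. Smad9, the least abundant of the 3 BMP Smads, had 2, 1 and 0 counts in the null-labelled libraries and 300, 184 and 256 in the wild-type-labelled ones (ratio 237, 95% counting interval 80.9 to 1153). Its fitted log2 fold change was -7.72, and -8.54 without null-labelled replicate 1. Smad1 had 34.6, 35.98 and 37.5 CPM in null-labelled and 50.6, 49.9 and 51.7 CPM in wild-type-labelled libraries (log2 fold change -0.49 ± 0.048 SE, edgeR adjusted p = 2.65e-24). Smad5 was higher, at 148 ± 4.98 CPM in null-labelled and 127 ± 1.56 CPM in wild-type-labelled libraries (SD, n = 3 each). Summed per kilobase, the 3 BMP Smads differed by 1.08-fold, at 26.1 ± 0.466 in null-labelled and 28.2 ± 0.489 in wild-type-labelled libraries, and Smad5 held 76.2 ± 1.27% of that sum in null-labelled and 60.6 ± 0.305% in wild-type-labelled libraries (SD, n = 3 each).

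Smad2, of the TGF-beta branch, averaged 80.9 ± 3.56 CPM in null-labelled and 67.6 ± 1.496 CPM in wild-type-labelled libraries (SD, n = 3 each; log2 fold change 0.26 ± 0.039 SE). Smad3, its partner, averaged 66.95 ± 0.947 CPM in null-labelled and 62.5 ± 2.29 CPM in wild-type-labelled libraries (SD, n = 3 each), with a log2 fold change of 0.10 ± 0.041 (SE; edgeR adjusted p = 0.0187). Smad4, the common partner and the most abundant Smad per kilobase in both groups, had 126, 127 and 130.2 CPM in null-labelled and 124, 119 and 119.6 CPM in wild-type-labelled libraries. Its log2 fold change was 0.07 ± 0.032 (SE; edgeR adjusted p = 0.0280). The calls of Smad3 and Smad4 are fragile. DESeq2 gave adjusted p = 0.0988 for Smad3 and 0.115 for Smad4, and edgeR without a filter on low counts gave adjusted p = 0.111 for Smad3 and 0.218 for Smad4. Smad3 also lost its call without wild-type-labelled replicate 1 (adjusted p = 0.192) and without null-labelled replicate 2 (0.0614). Smad4 lost it without wild-type-labelled replicate 2 (adjusted p = 0.136) or 3 (0.131) and without null-labelled replicate 3 (0.113), all by edgeR.

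The inhibitory Smads went opposite ways. Smad6, which acts mainly on BMP receptors, had 0.768, 0.292 and 1.23 CPM in the null-labelled libraries, against 6.37, 6.30 and 6.60 CPM in the wild-type-labelled ones (log2 fold change -3.04 ± 0.19 SE, edgeR adjusted p = 2.21e-54). Smad7, which acts on both branches, had 68.5, 69.97 and 73.99 CPM in null-labelled and 43.4, 45.2 and 48.7 CPM in wild-type-labelled libraries (0.63 ± 0.043 SE, adjusted p = 1.74e-47). Smad3 and Smad6 are neighbours on chromosome 9, at 63646767 to 63757994 and 63953076 to 64022059. Of the pair, Smad6 was clearly lower, while Smad3 differed little and its call was fragile. The nuclear corepressors were all modestly lower. Ski had 173, 181 and 186 CPM in null-labelled and 252, 251 and 250.1 CPM in wild-type-labelled libraries (log2 fold change -0.48 ± 0.027 SE). Skil, also a target of TGF-beta signals, had 56.7, 56.9 and 57.8 CPM in null-labelled and 80.1, 82.7 and 83.2 CPM in wild-type-labelled libraries (-0.52 ± 0.041, SE). Tgif1, a homeodomain repressor, had 66.2, 65.5 and 63.9 CPM in null-labelled and 77.3, 78.9 and 79.9 CPM in wild-type-labelled libraries (-0.27 ± 0.040, SE). The groups of each of these 3 genes lay apart, and their largest edgeR adjusted p was 2.77e-11.

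Most antagonists were lower in the null-labelled libraries. Of 9, 5 were lower and 2 higher, 1 did not pass and 1 was not tested. Grem1, gremlin, a secreted antagonist of BMP2 and BMP4 proteins (chromosome 2, 113746164 to 113758646), had 30, 22 and 37 counts in null-labelled and 16060, 10806 and 13283 in wild-type-labelled libraries (log2 fold change -8.76 ± 0.051, SE). Fstl1, a secreted follistatin-like glycoprotein, had 128, 122 and 128 CPM in null-labelled and 747, 768 and 761 CPM in wild-type-labelled libraries (-2.59 ± 0.026, SE). Fst, follistatin, which binds activin, had 1.38, 1.75 and 1.599 CPM in null-labelled and 11.3, 11.1 and 11.6 CPM in wild-type-labelled libraries (-2.85 ± 0.14, SE). For each of these genes the highest null-labelled library lay below the lowest wild-type-labelled one, and the largest edgeR adjusted p was 6.75e-88.

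Both membrane-bound antagonists were nearly absent from the null-labelled libraries. Bambi, a receptor decoy without a kinase, had 0, 1 and 0 counts in null-labelled and 251, 139 and 232 in wild-type-labelled libraries (ratio 598, 95% counting interval 107 to 23671). Pmepa1, which holds back Smad2 and Smad3 and is itself a target of TGF-beta, had 1, 2 and 0 counts in null-labelled and 337, 240 and 301 in wild-type-labelled libraries (ratio 282, 95% counting interval 96.0 to 1368). Without null-labelled replicate 2 the fitted log2 fold change of Bambi was -10.69 in place of -8.77, and that of Pmepa1 was -8.87 in place of -7.97. Chordin and the follistatin-like gene Fstl3 were higher instead. Chrd averaged 1.97 ± 0.166 CPM in null-labelled and 0.417 ± 0.047 CPM in wild-type-labelled libraries (SD, n = 3 each), with a log2 fold change of 2.22 ± 0.30 (SE). Fstl3 averaged 6.68 ± 0.733 CPM in null-labelled and 3.03 ± 0.184 CPM in wild-type-labelled libraries (SD, n = 3 each), with 1.13 ± 0.14 (SE). Reads over 1157 of its 2445 exonic bases (47.3%) went uncounted, as they also lie in exons of Prss57, so its level per kilobase is understated. Nbl1, a secreted BMP antagonist, had overlapping groups, at 14.7 ± 0.788 CPM in null-labelled and 14.9 ± 1.16 CPM in wild-type-labelled libraries (SD, n = 3 each; edgeR adjusted p = 0.759). Nog, noggin, had 0 counts over the null-labelled and 6 over the wild-type-labelled libraries, too few for a test.

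Per kilobase, the 7 secreted antagonists summed to 37.01 ± 1.01 CPM in null-labelled and 336 ± 3.93 CPM in wild-type-labelled libraries (SD, n = 3 each), 9.09-fold lower in the null-labelled ones. Grem1 made up 1.04 ± 0.197% of that sum in null-labelled libraries, against 50.06 ± 0.261% in wild-type-labelled libraries. Fstl1 held 69.3 ± 0.829% of it in null-labelled libraries and 45.9 ± 0.129% in wild-type-labelled libraries.

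**Figure D3:**
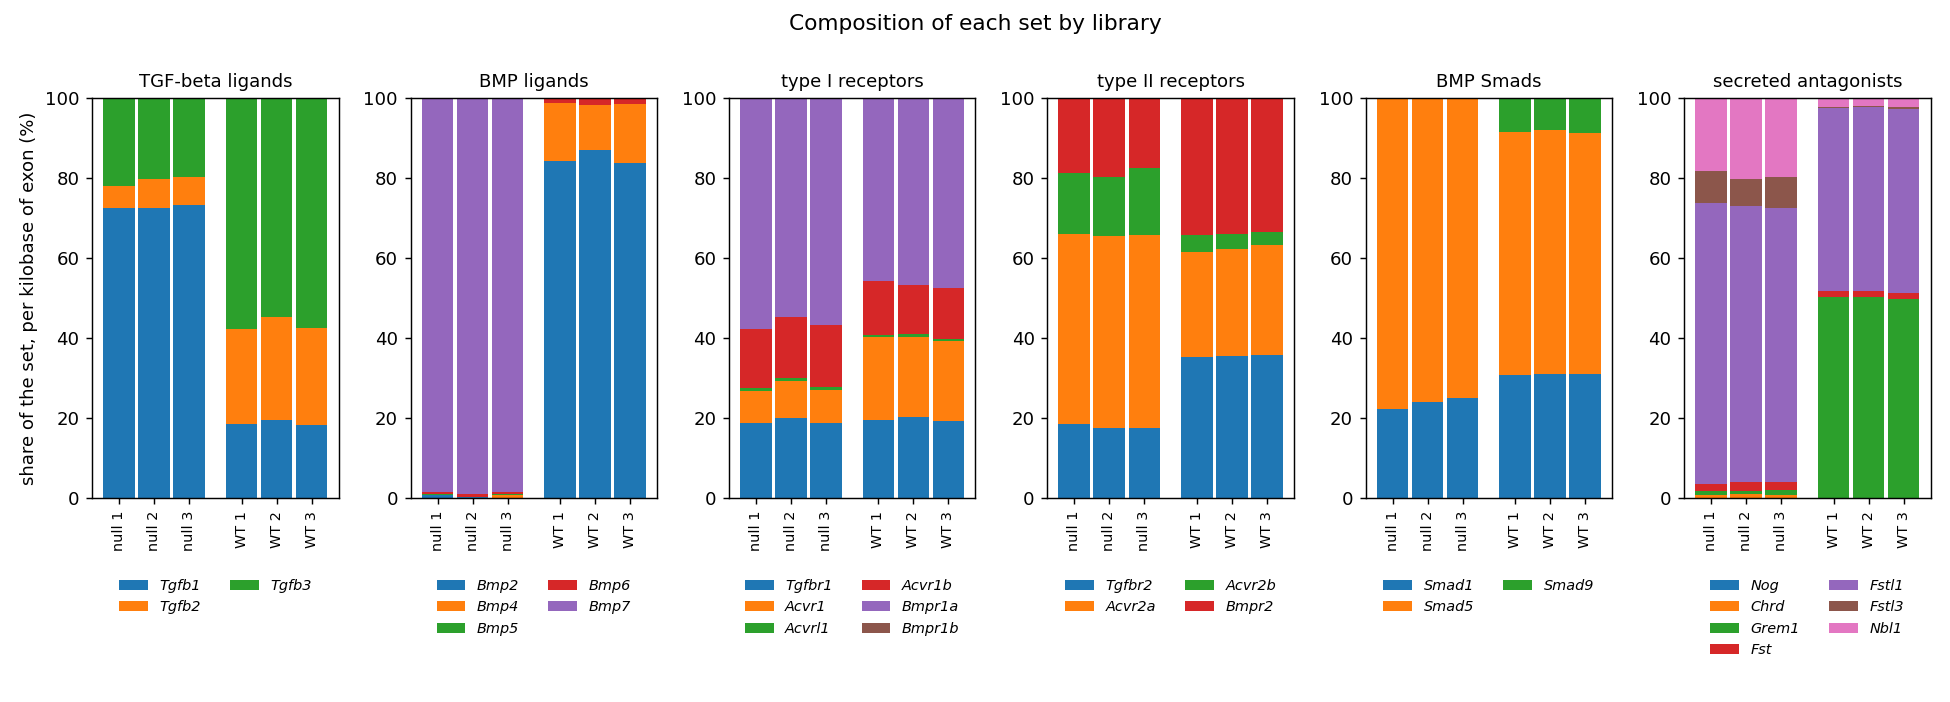
Share of each gene in the summed level of its set, in percent and per kilobase of exon, in each of the 3 null-labelled and 3 wild-type-labelled (WT) libraries. Bmp7 fills 98.6% of the BMP ligands in the null-labelled libraries on average, Tgfb1 fills 72.7% of the TGF-beta ligands, and Grem1 fills 1.04% of the secreted antagonists there, against 50.06% in the wild-type-labelled libraries.

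All 4 Id genes, which encode inhibitors of basic helix-loop-helix factors, were lower in the null-labelled libraries, 3 of them by less than 2-fold. Id1 had 86.6, 81.7 and 87.9 CPM in null-labelled and 100.3, 107 and 117 CPM in wild-type-labelled libraries (log2 fold change -0.33 ± 0.035 SE, edgeR adjusted p = 1.72e-20). Id2 had 48.9, 51.3 and 60.4 CPM in null-labelled and 98.1, 96.1 and 96.96 CPM in wild-type-labelled libraries (-0.86 ± 0.040, SE). Id3 had 81.2, 79.4 and 93.8 CPM in null-labelled and 129, 126 and 143 CPM in wild-type-labelled libraries (-0.64 ± 0.040, SE). Every null-labelled library lay below every wild-type-labelled one for these 3 genes, by the least margin for Id1. Id4 had 0, 0 and 1 counts in null-labelled and 115, 67 and 115 in wild-type-labelled libraries (ratio 286, 95% counting interval 50.9 to 11323), and its fitted log2 fold change was -7.71, or -9.60 without null-labelled replicate 3. Of its 1660 exonic bases, 171 (10.3%) also lie in exons of A330033J07Rik and went uncounted. Summed per kilobase, the Id genes stood at 163 ± 11.05 CPM in null-labelled and 247 ± 12.2 CPM in wild-type-labelled libraries (SD, n = 3 each), 1.51-fold lower in the null-labelled ones.

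Promoters are shown for genes of several roles, so that the letters before lower and higher genes can be set side by side. RefSeq promoter windows (GRCm38.p6, the mm10 assembly) were found for 33 of the 47 genes, and 21 of these began within 5 bases of the gene start in the count tables. Of those 21 genes, all that were lower over 32-fold or higher over 2-fold are printed, which leaves out larger differences such as those of Bmp2 and Bmp7, as the 250 bases before the start, 5′ to 3′ on the gene's strand. Capitals mark CAGAC, the core of the Smad3 and Smad4 binding element, written GTCTG where it lies on the other strand, and GGCGCC, a GC-rich element described for BMP-responsive Smads, which reads the same on both strands. The first 3 genes were lower and the last 3 higher in the null-labelled libraries.
Grem1 (chr2:113758649-113758898, minus strand): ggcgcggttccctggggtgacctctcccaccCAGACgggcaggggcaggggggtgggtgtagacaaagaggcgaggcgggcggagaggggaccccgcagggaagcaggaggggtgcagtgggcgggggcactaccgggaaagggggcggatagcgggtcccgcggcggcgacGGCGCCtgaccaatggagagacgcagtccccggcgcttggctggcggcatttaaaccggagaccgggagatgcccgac
Smad9 (chr3:54755332-54755581, plus strand): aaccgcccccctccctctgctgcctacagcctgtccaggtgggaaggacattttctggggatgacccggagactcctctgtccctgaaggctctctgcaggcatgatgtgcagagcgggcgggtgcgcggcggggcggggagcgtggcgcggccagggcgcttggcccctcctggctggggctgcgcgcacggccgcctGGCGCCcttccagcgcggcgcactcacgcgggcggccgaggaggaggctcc
Bmp4 (chr14:46390670-46390919, minus strand): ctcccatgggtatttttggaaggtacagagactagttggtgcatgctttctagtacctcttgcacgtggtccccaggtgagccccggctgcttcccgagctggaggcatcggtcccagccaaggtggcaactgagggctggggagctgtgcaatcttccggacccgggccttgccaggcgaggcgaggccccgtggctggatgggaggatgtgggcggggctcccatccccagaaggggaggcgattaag
Fstl3 (chr10:79777024-79777273, plus strand): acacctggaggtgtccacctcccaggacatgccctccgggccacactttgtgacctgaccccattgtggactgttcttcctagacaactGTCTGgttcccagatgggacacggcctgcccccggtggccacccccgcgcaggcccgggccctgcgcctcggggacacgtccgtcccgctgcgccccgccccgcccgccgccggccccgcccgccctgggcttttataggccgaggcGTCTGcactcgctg
Tgfb1 (chr7:25686752-25687001, plus strand): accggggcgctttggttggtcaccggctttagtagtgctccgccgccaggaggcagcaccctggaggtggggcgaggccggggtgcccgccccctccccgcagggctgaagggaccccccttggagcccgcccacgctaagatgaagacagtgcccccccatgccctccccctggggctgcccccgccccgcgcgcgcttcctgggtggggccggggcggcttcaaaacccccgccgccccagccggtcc
Chrd (chr16:20732877-20733126, plus strand): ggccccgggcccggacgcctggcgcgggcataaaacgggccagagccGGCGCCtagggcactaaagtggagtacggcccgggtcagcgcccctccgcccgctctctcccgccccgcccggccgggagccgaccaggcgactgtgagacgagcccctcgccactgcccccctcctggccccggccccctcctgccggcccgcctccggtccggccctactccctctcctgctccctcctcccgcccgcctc
Both sets held windows with and without these letters. GGCGCC stood in the windows of Grem1 and Smad9, which were lower, and of Chrd, which was higher, and CAGAC stood in those of Grem1 and Fstl3. Neither was found in the windows of Bmp4 and Tgfb1. Over the 33 genes with a window, 13 (39.4%) held CAGAC and 10 (30.3%) held GGCGCC, where 42.2% and 9.6% of all 32817 promoter windows of that length did. The members' windows were also richer in G and C, with a median of 68.8% against 52.4% for all windows. In both comparisons each member kept only the window nearest its gene start, while the set of all windows was not thinned by gene. A match here is a description of letters and no evidence of binding.

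Other genes of the pathway were taken from 6 lists that hold none of the 47. Of 100 listed genes present in the tables, 66 were tested. Lower calls numbered 38 (57.6%) and higher calls 19 (28.8%), and 9 genes did not pass. Of all genes tested, 41.1% were called lower and 38.1% higher, which is the background for each list below. The lists were written with earlier results of these data known. Genes of latency and activation, which store TGF-beta in the matrix and release it, were mostly lower, 11 of 15 tested, with 4 higher. Their median log2 fold change was -4.84 (-3.61 with Pcsk6, which had no count in the null-labelled libraries, at its bound), beside -0.02 over all genes. Itgb8, an integrin subunit that activates latent TGF-beta, had 0, 1 and 0 counts in null-labelled and 318, 219 and 270 in wild-type-labelled libraries. Fbn2, a fibrillin of the microfibrils, averaged 0.666 ± 0.044 CPM in null-labelled and 231 ± 11.4 CPM in wild-type-labelled libraries (SD, n = 3 each). Of the 4 latent binding proteins, picked out after their values were seen, 3 were lower and 1 higher. Ltbp1 averaged 19.9 ± 0.491 CPM in null-labelled and 572 ± 20.5 CPM in wild-type-labelled libraries (SD, n = 3 each). Ltbp2 stood at -7.18 ± 0.074 and Ltbp3 at -1.58 ± 0.029 on the log2 scale (SE), whereas Ltbp4 averaged 60.8 ± 1.16 CPM in null-labelled and 29.4 ± 0.189 CPM in wild-type-labelled libraries (SD, n = 3 each).

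Of 9 further antagonists tested, 7 were lower and 1 higher (median -2.26). Dcn, the proteoglycan decorin, averaged 0.521 ± 0.049 CPM in null-labelled and 99.8 ± 5.36 CPM in wild-type-labelled libraries (SD, n = 3 each). Dcn is also one of the fibroblast markers. Of 5 genes tested from the list of further ligands, 3 were lower and 2 higher. The lower ones include Bmp1 (-0.21 ± 0.028, SE), which despite its name encodes a protease and no ligand. Gdf15, a stress cytokine, stood at 3.85 ± 0.26 and Gdf11 at -1.37 ± 0.076 on the log2 scale (SE). Of 5 coreceptors and other receptors tested, 3 were lower and 2 higher, with the BMP coreceptor Rgmb at -1.71 ± 0.055 and its partner neogenin, Neo1, at 0.92 ± 0.033 on the log2 scale (SE).

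The intracellular regulators showed small differences in either direction. Of 18, 5 were called lower, 5 were called higher and 8 did not pass. The share called was 55.6%, where 79.2% of all tested genes were called. Of the 18, 0 differed by over 2-fold, with a median absolute log2 fold change of 0.08 where all tested genes had 0.47. The largest were Smurf1, a ubiquitin ligase for Smads, at -0.61 ± 0.032, and Strap, a receptor-associated protein, at 0.57 ± 0.022 on the log2 scale (SE). Target genes beyond the Id family went both ways, 9 lower and 5 higher of 14 tested. Cdkn2b, a cell cycle inhibitor induced by TGF-beta, averaged 0.088 ± 0.057 CPM in null-labelled and 43.7 ± 1.87 CPM in wild-type-labelled libraries, and Acta2, smooth muscle actin, averaged 0.941 ± 0.063 CPM in null-labelled and 202 ± 7.51 CPM in wild-type-labelled libraries (SD, n = 3 each).

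**Figure D4:**
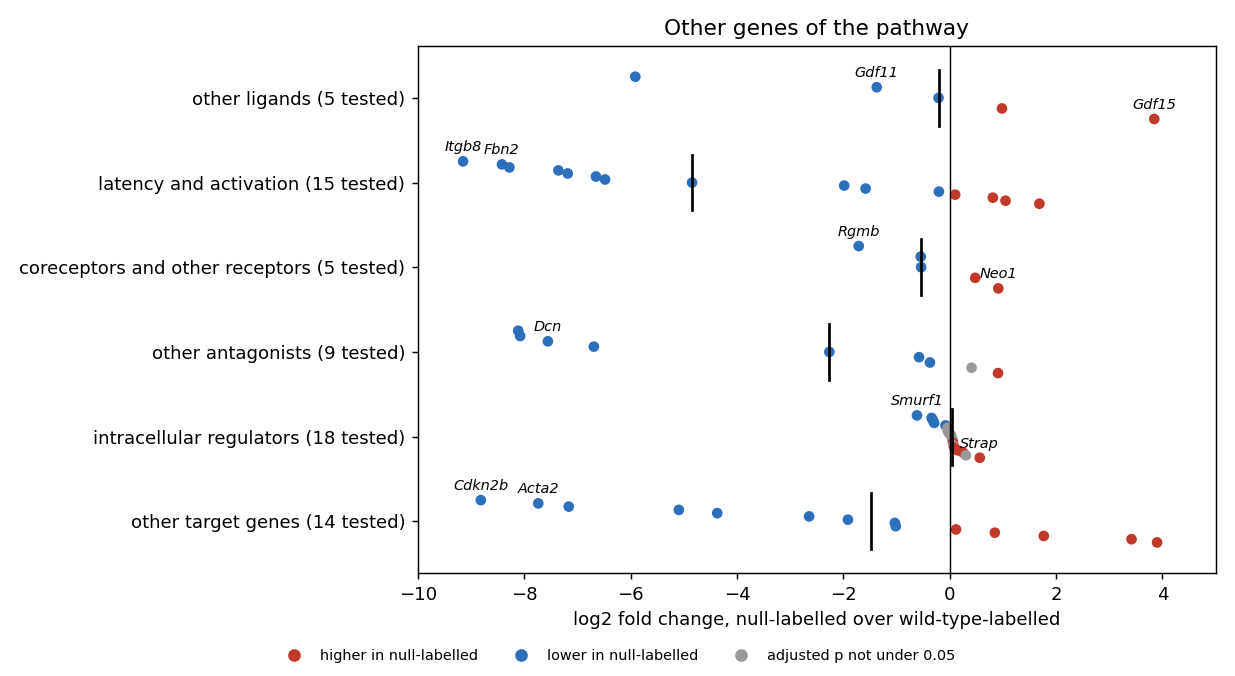
Log2 fold change, null-labelled over wild-type-labelled, of the tested genes of 6 further pathway lists. Points are genes, coloured by their call, and black bars are list medians. Labels mark the genes named for the largest differences of their list. Bmp1, Pcsk6 and the latent binding proteins are not labelled. The latency list has its median at -4.84, and the intracellular regulators lie close to 0.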

How the data were processed

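RNA was taken from the cultures with RNeasy columns and sequenced as single reads of 51 bp, per the labels. The deposited files hold raw counts per Ensembl gene, 1 file a library, made by the authors with featureCounts 1.6.2, Ensembl release 83 and mm10 chromosome names, per the file headers. No strand or multimapping option was set, so a read that lay in exons of several genes, whatever their strand, went uncounted. The submitters' processing notes name FastQC 0.11.2, Trimmomatic 0.33, featureCounts 1.2.6 and Subread 1.6.2, as well as the builds GRCm38, mm10 and hg38. All rows name a gene. Symbols were matched by identifier for 46488 genes (98.9%).

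Groups came from the sample titles. Genes were filtered with filterByExpr, scaled with TMM and put through the robust quasi-likelihood F-test of edgeR 4.0.16 (R 4.3.3), with no covariate and Benjamini-Hochberg adjustment. The SE is the log2 fold change over the square root of F. It understates the uncertainty of large differences with few counts in a group, such as those of Bmp2, Bmp7 and Grem1. The floor for a gene at 0 in a group was 3 counts over that group. In 1 library 3 counts are 0.127 to 0.192 CPM. Intervals are exact binomial and, like the floor, cover counting error only. Within-group chi-square was 1.44 to 2.04 per degree of freedom, so no library was taken as a repeat of another. These values cannot tell separate cultures from libraries of the same culture. Tested on simulated data for null-labelled against wild-type-labelled libraries (15199 genes), the test found 50% of the 50 genes given a 1.2-fold change and 90% of those given 2-fold. It wrongly called 14 of 14999 unchanged genes. Only 50 genes were changed at each fold, up to 4-fold, whereas 79.2% of genes were called in the data. The simulation is thus unlike the data, and these rates need not hold there. Alternatives were median-of-ratios factors, DESeq2 1.42.0, limma-voom (limma 3.58.1), other filters and thresholds, a replicate block and leaving out each library.

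The 47 genes and all lists were chosen with earlier results of these data known. Every library's value is given, per role, for the 4 called members of at least 1 CPM in either group with the largest differences and for the member highest per kilobase in each group. Of each further list the 2 called genes with the largest differences and an average log2 CPM of at least 1 are named, except 1 that is not reported here.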

Additional observations from a re-analysis of the deposited data

How the results depend on the processing

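Of the log2 fold changes of the 41 tested members, 480 values under the alternatives kept direction and side of the threshold, 9 lost their call (all of Smad3 or Smad4, given above) and 2 changed sign. Both sign changes were those of Nbl1, which was not called, at 0.019 without wild-type-labelled replicate 3 and 0.018 without null-labelled replicate 1, over a range of -0.077 to 0.019 when libraries were left out. The count of members was 10 to 12 higher and 26 to 30 lower over the alternatives that keep the threshold, and 11 to 12 higher and 27 to 28 lower when libraries were left out in turn. Smads higher numbered 3 with DESeq2, without a filter on low counts and at an adjusted p under 0.01. Asking for over 2-fold left 3982 genes called in all, 5 members higher and 15 lower, and 33 other pathway genes. By role it left 1 receptor higher and 1 lower, 0 Smads higher, 0 corepressors lower and 1 Id gene lower. Same-numbered libraries did not deviate together (correlations of -0.00280 to 0.0181), so the numbers were not taken as pairs. With the replicate number as a block, 12003 genes were called, 12 members were higher and 27 lower, and 57 other pathway genes were called, with no call of a member changed. Without a filter, Inhbb, Bmpr1b and Nog could be tested too and were lower (adjusted p = 5.04e-06, 1.06e-08 and 0.0361, edgeR), while Bmp5 was not (0.773). Bmpr1b also passed the filter, and was lower, in 4 of the 6 fits that leave out a library. Depth limits the genes with few counts in a group. Before the log2, the fold differences of Bmp2, Bmp4, Bmp7, Smad9, Bambi, Pmepa1 and Id4 move by over 1.5 times without 1 library (log2 values given above). By limma-voom the log2 fold change was -8.105 for Bambi and -7.04 for Id4.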

Other observations

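Replicate 3 held the highest CPM within both groups for 10 of the 41 tested members (24.4%), where 12.2% of all tested genes showed this. The 10 were Bmp4, Bmp7, Smad1, Smad6, Smad7, Skil, Nbl1, Id1, Id3 and Id4, and Bmp4 and Id4 had only 2 and 1 counts over the null-labelled libraries. For Id3 the values were 93.8 CPM in null-labelled replicate 3, against 81.2 and 79.4 in the other null-labelled libraries, and 143 CPM in wild-type-labelled replicate 3, against 129 and 126 in the other wild-type-labelled ones. The pattern was seen after the values were known and was not tested.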
